A study of Mus musculus with 20 samples.

Results

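The 10 genes described here encode the mouse MHC class II antigen presentation machinery: the peptide-binding chains H2-Aa, H2-Ab1 and H2-Eb1, the invariant chain Cd74, the peptide exchange subunits H2-DMa, H2-DMb1 and H2-DMb2, their modulators H2-Oa and H2-Ob, and the transactivator Ciita. They were taken by name, and all 10 were found among the 54532 genes counted in plantaris muscle. The list was chosen with mimic minus control values of these libraries in view, so that every mimic against control value below is a description and supports nothing. Counts of genes called in those contrasts are printed as background alone. Overload (MOV) against sham was tested in each virus. Each of these tests uses one arm of the contrast on which the list was chosen, the MOV mimic or the MOV control libraries, so that its member values are not independent of that choice and are given as a description with their adjusted p.

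The plantaris muscles sequenced came from 5-month-old male C57BL/6J mice and were collected 10 days after surgery. The surgery was a sham operation or MOV, a bilateral synergist ablation that makes the plantaris carry the load of the removed muscles. Each muscle was injected during surgery with a TurboGFP lentivirus carrying a scramble control or a miR-1a-3p mimic, under a CMV promoter that is not restricted to one cell type. The groups were MOV mimic, MOV control, sham mimic and sham control, with 5 libraries each, 20 in all, so that virus, injection and surgery were shared by every group and no muscle was uninjected. By the study's methods each mouse had the control virus in the left leg and the mimic in the right leg. The labels number the replicates 1 to 5 but do not say which libraries came from one mouse, and libraries of the same surgery and number are called legs of equal replicate number.

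MHC class II molecules are pairs of α and β chains that carry peptides from endosomes to the surface of dendritic cells, macrophages and B cells, where CD4+ T cells read them. New chains are bound by the invariant chain, which is cut by proteases in the endosome, and H2-DM then exchanges the remaining fragment for peptide while H2-DO restrains H2-DM. Ciita switches on the chains, Cd74 and H2-DM by binding to a protein assembly on the X and Y boxes of class II promoters. Interferon-γ induces Ciita in many cell types, with Irf1 among the factors that act on its promoter. In resting muscle, fibres have little class II protein, and most of it is on resident macrophages and dendritic cells.

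The stretches of promoter that carry an X box and a Y box are shown because they are what the class II genes share apart from function. RefSeq windows on GRCm38.p6, from 250 bases before to 50 bases after a start site, were at hand for 7 of the 10 genes. H2-Ab1, Cd74 and Ciita had none. The Y box core TGATTGG and an AAC of the X box 20 to 30 bases before it are in capitals. These letters were chosen after the sequences had been seen, from the known boxes.
H2-Aa, chr17:34287861-34287916, minus strand: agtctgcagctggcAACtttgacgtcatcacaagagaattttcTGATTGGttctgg
H2-Eb1, chr17:34305764-34305818, plus strand: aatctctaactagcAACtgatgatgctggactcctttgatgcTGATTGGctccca
H2-DMb1, chr17:34153085-34153140, plus strand: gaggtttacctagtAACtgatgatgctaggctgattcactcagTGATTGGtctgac
H2-DMb2, chr17:34145114-34145169, plus strand: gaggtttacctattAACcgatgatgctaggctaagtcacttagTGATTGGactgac
H2-Oa, chr17:34092291-34092346, plus strand: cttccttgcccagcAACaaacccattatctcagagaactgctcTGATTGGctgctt
H2-Ob, chr17:34238806-34238858, plus strand: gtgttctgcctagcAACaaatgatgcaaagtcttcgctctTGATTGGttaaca

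The pair was found in 6 of the 7 genes with a window, with 23 to 26 bases between AAC and TGATTGG and the pair lying 74 to 121 bases before the start site. Over all 32851 windows, searched on both strands, TGATTGG was found in 7.82% and the pair in 1.05%. The member windows were searched on the gene's own strand alone and counted by gene, so these shares are not a like comparison. The 2 windows of H2-DMa, a class II locus gene, did not hold the pair of letters. These stretches lie in the MHC class II region, where all 8 members of chromosome 17 sit between 34092379 and 34316674.

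Depth was between 12036360 and 23056525 counts per library, and levels are given as CPM, counts scaled to 1e6 per library after TMM scaling of library size. The peptide-binding chains were abundant for immune genes in muscle. The pan-leukocyte markers (Ptprc, Coro1a, Lcp1 and Laptm5) summed to 35.7 to 368.3 CPM, and muscle fibre markers such as Acta1 to between 50389 and 137751 CPM, so the tissue label held. B cell markers were near the floor: Ms4a1 had no counts in 9 of 20 libraries and Pax5 in 14 of 20. In bulk muscle, fewer cells of a type and less RNA per cell cannot be told apart.

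Compared per kilobase of exon, which removes gene length, the members fell into tiers, given over all 20 libraries although MOV mimic raises these means. Cd74 was the highest at 249.7 ± 158.1 CPM per kb (SD, n = 20). H2-Eb1 at 107.1 ± 60.4, H2-Ab1 at 92.8 ± 62.2 and H2-Aa at 91.3 ± 55.5 CPM per kb followed, and these neighbours overlapped within their spread. Their order was not fixed: H2-Aa was above H2-Ab1 in sham control (72.6 and 66.7 CPM per kb) and below it in MOV mimic (152.8 and 167.0). H2-DMa at 9.58 ± 7.99 and H2-DMb1 at 9.43 ± 7.26 CPM per kb formed the next tier and did not differ beyond their spread. Ciita, a transcription regulator, was at 1.77 ± 1.57 CPM per kb. H2-DMb2 at 0.94 ± 1.16, H2-Ob at 0.37 ± 0.36 and H2-Oa at 0.36 ± 0.75 CPM per kb were the lowest and overlapped with each other, and H2-Oa was below H2-Ob in MOV control (0.0545 and 0.31 CPM per kb) and above it in MOV mimic (1.02 and 0.58). Among the class II loci outside the list, H2-Ea had 1 count in 1 library and none in 19, and H2-Eb2 reached 0.73 CPM at most. C57BL/6 mice carry a defective H2-Ea, so that the H2-Eb1 chain counted here has no I-E partner.

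**Figure D1:**
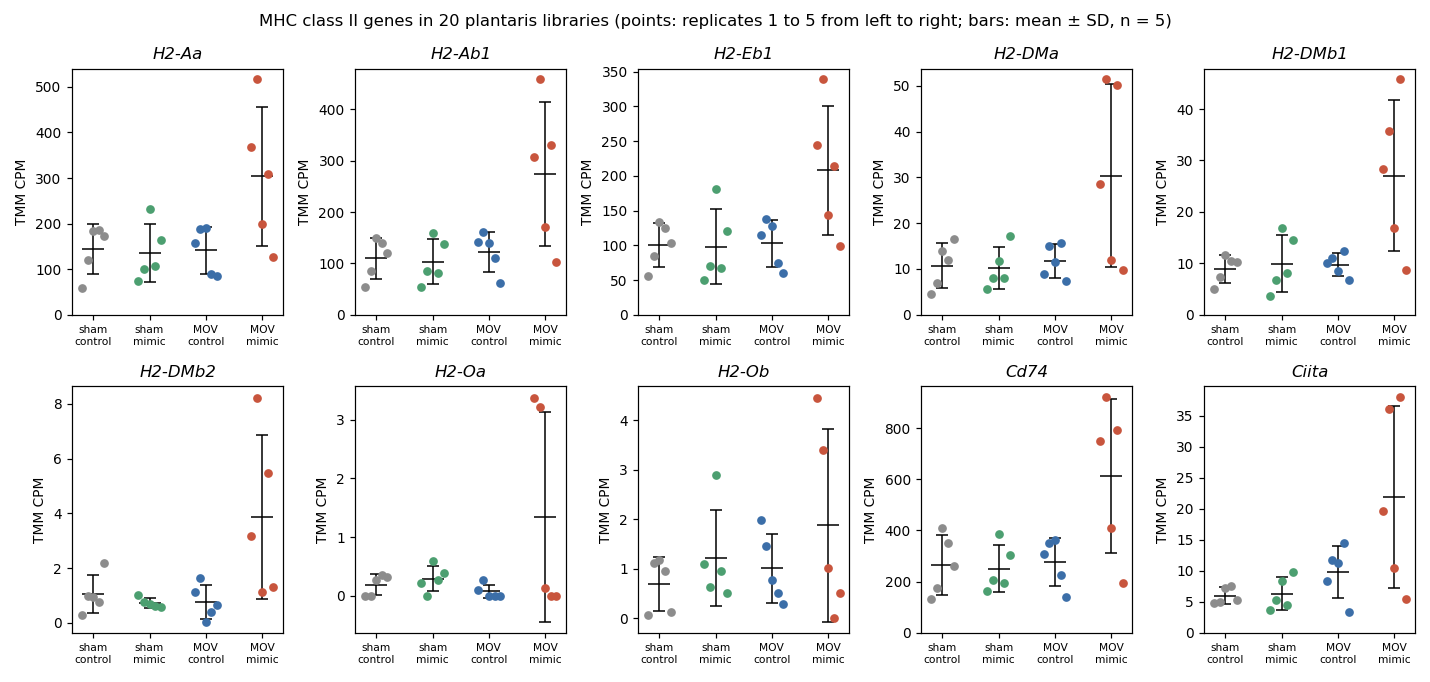
CPM after TMM scaling (y axis, a scale of its own for each gene) of the 10 class II genes in the sham and MOV groups with either virus. Points are replicates 1 to 5 from left to right and bars are mean ± SD (n = 5). MOV mimic replicates 1, 2 and 4 stood above all MOV control libraries for H2-Aa, H2-Ab1, H2-Eb1, Cd74, H2-DMa, H2-DMb1 and Ciita, while replicates 3 and 5 lay lower.

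H2-Aa (ENSMUSG00000036594, chr17:34282744-34287823), the I-A α chain, was at 58.6, 119.4, 184.6, 185.6 and 172.9 CPM in sham control replicates 1 to 5 and at 74.6, 99.6, 232.6, 108.0 and 164.6 CPM in sham mimic. In MOV control it was at 157.4, 187.5, 189.6, 89.8 and 84.2 CPM, and in MOV mimic at 367.7, 517.2, 198.4, 308.5 and 126.8 CPM. The ranges of the sham groups and MOV control overlapped, with sham mimic replicate 3 above every MOV control library. In MOV mimic 4 of the 5 libraries were above every MOV control library while replicate 5 lay inside the MOV control range. The mimic minus control Log2FC was 1.09 ± 0.35 (SE) in MOV and -0.09 ± 0.34 in sham.

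H2-Ab1 (ENSMUSG00000073421, chr17:34263227-34269418), the I-A β chain, was at 142.3, 160.9, 139.7, 110.1 and 61.2 CPM in MOV control and at 308.0, 459.4, 171.8, 331.0 and 102.3 CPM in MOV mimic. In sham it ran from 53.5 to 149.1 CPM with the control virus (median 119.9) and from 53.4 to 158.5 CPM with the mimic (median 85.0). Its MOV mimic minus MOV control Log2FC was 1.16 ± 0.36 and its sham value was -0.09 ± 0.32. H2-Aa and H2-Ab1, whose products pair one to one, kept a ratio of CPM of 1.23 ± 0.17 (SD, n = 20) over libraries in which H2-Ab1 itself ranged 8.60-fold. The lowest ratios, 0.82 and 0.93, were those of replicate 4 of MOV control and of MOV mimic.

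H2-Eb1 (ENSMUSG00000060586, chr17:34305867-34316674), the I-E β chain, was at 114.7, 137.9, 127.7, 74.0 and 60.6 CPM in MOV control and at 243.8, 339.5, 144.0, 213.8 and 98.9 CPM in MOV mimic. Again replicate 5 was the lowest of MOV mimic and the only one inside the MOV control range. The Log2FC of mimic minus control was 1.01 ± 0.32 in MOV and -0.04 ± 0.33 in sham, where levels were between 50.2 and 181.7 CPM.

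Cd74 (ENSMUSG00000024610), the invariant chain that blocks the groove and steers new class II molecules to endosomes, was at 307.3, 352.3, 363.8, 226.7 and 141.0 CPM in MOV control and at 749.1, 923.8, 408.2, 791.6 and 193.4 CPM in MOV mimic. In sham control it was at 131.6, 175.3, 411.4, 350.7 and 260.5 CPM and in sham mimic at 164.6, 207.0, 385.1, 194.5 and 304.3 CPM. Every MOV mimic library but replicate 5 was above all MOV control libraries, and the mimic minus control Log2FC was 1.14 ± 0.38 in MOV against -0.09 ± 0.32 in sham. The CPM ratio of Cd74 to H2-Ab1 was 2.34 ± 0.28 (SD, n = 20), the steadiest of the ratios to H2-Ab1 in the 20 libraries on the log2 scale (SD 0.17). An annotated microRNA gene, Mir5107, overlaps Cd74, and the strand setting of the counting was not given in the sources used here.

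H2-DMa (ENSMUSG00000037649, chr17:34119693-34139101), the α subunit of the exchange factor, was at 8.85, 15.0, 11.5, 15.7 and 7.36 CPM in MOV control and at 28.5, 51.4, 12.0, 50.1 and 9.67 CPM in MOV mimic. H2-DMb1 (ENSMUSG00000079547, chr17:34153191-34160229), its β partner, was at 10.0, 11.1, 8.52, 12.4 and 6.85 CPM in MOV control and at 28.3, 35.7, 16.9, 45.8 and 8.70 CPM in MOV mimic. For both subunits MOV mimic replicates 1, 2 and 4 were the high ones and replicate 5 lay within the MOV control range, as did replicate 3 for H2-DMa. The Log2FC of mimic minus control in MOV was 1.38 ± 0.43 for H2-DMa and 1.47 ± 0.36 for H2-DMb1. In sham it was -0.09 ± 0.36 for H2-DMa and 0.15 ± 0.37 for H2-DMb1. The CPM ratio of H2-DMb1 to H2-DMa was 0.93 ± 0.22 (SD, n = 20). Brd2 overlaps the annotated span of H2-DMa.

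H2-DMb2 (ENSMUSG00000037548, chr17:34143229-34151553), a second β subunit gene, was much lower, with 23, 38, 1, 6 and 9 counts in MOV control and 62, 174, 18, 76 and 20 counts in MOV mimic. These counts are 1.14, 1.64, 0.05, 0.39 and 0.66 CPM against 3.17, 8.23, 1.14, 5.48 and 1.30 CPM, with overlap between the groups. Its Log2FC was the highest of the members in MOV, 2.29 ± 0.76, and rests on these low counts. Of its 50-base stretches 27.2% also occur in H2-DMb1, as do 26.2% of those of H2-DMb1 in H2-DMb2, so reads may have been split between them and both values are uncertain.

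H2-Oa (ENSMUSG00000024334, chr17:34092379-34095234) and H2-Ob (ENSMUSG00000041538, chr17:34238905-34245908), the subunits of the H2-DM inhibitor H2-DO known mainly from B cells, were close to the detection limit. H2-Oa had 66, 68, 2, 0 and 0 counts in MOV mimic, 2, 6, 0, 0 and 0 in MOV control, and no more than 12 in any sham library. H2-Ob had 87, 72, 16, 0 and 8 counts in MOV mimic and 40, 34, 15, 8 and 4 in MOV control. Both genes were therefore high in MOV mimic replicates 1 and 2. They were not high in replicate 4, where the chains, Cd74 and Ciita were also high. That replicate had the lowest depth of the 20 libraries (12036360 counts). It had counts for 15561 genes, against 18768 to 20702 in the others of its group. Its 0 counts for H2-Oa and H2-Ob are therefore less certain. H2-Oa did not pass the filter on low counts in any comparison, and the other 9 members passed it in all of them. BC051537 overlaps the annotated span of H2-Oa. The Log2FC of H2-Ob was 0.88 ± 0.92 in MOV and 0.80 ± 0.68 in sham. With 1 library left out it ran from 0.296 to 1.28 in MOV and from 0.201 to 1.08 in sham.

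Ciita (ENSMUSG00000022504, chr16:10480014-10531064), the class II transactivator, was at 4.73, 4.92, 7.18, 7.61 and 5.31 CPM in sham control and at 3.74, 5.25, 8.39, 4.39 and 9.82 CPM in sham mimic. In MOV control it was at 8.26, 11.8, 11.2, 14.4 and 3.35 CPM and in MOV mimic at 19.6, 36.1, 10.4, 38.0 and 5.45 CPM. MOV control replicates 1 to 4 were above every sham control library and replicate 5 was below them, and MOV mimic replicates 3 and 5 lay inside the MOV control range. The Log2FC of mimic minus control was 1.16 ± 0.49 in MOV and 0.08 ± 0.28 in sham. Dexi and LOC115488669 overlap its annotated span.

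Legs of equal replicate number were then set side by side, as the difference of log2 CPM with a prior count of 2. In MOV 7 of the 10 members were higher in mimic in 5 of 5 legs, where 4.36% of all 15220 genes tested were. These were H2-Aa, H2-Ab1, H2-Eb1, Cd74, H2-DMa, H2-DMb1 and H2-DMb2. In sham 0 of 10 were higher in 5 of 5 legs, where 2.39% of all 14746 genes tested were. The members were chosen on this contrast, so nothing is read from these shares.

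By leg, 10, 10, 9, 8 and 9 of the 10 members were higher in mimic in MOV replicates 1 to 5. The median difference over the 10 members was 1.26, 1.56, 0.24, 1.62 and 0.62 log2 units in those replicates. Replicate 3 was uneven: H2-Aa was 1.05-fold, H2-DMa 1.04-fold, Cd74 1.12-fold and Ciita 0.92-fold of the control leg, whereas H2-DMb1 was 1.98-fold and H2-DMb2, with 18 counts against 1, was higher too. In replicate 4 H2-Aa was 3.43-fold, Cd74 3.49-fold and H2-DMb1 3.69-fold of the control leg. In that replicate the control leg itself was low in H2-Aa (89.8 CPM). In replicate 2, where the control leg was the highest of its group in the summed chains and Cd74 (838.7 CPM), H2-Aa was 2.76-fold and H2-DMa 3.44-fold. In sham, 6, 3, 7, 1 and 8 of the 10 members were higher in the mimic leg, with medians of 0.32, -0.08, 0.28, -0.68 and 0.21 log2 units. The interaction, mimic minus control in MOV minus the same in sham, was between 0.07 for H2-Ob and 2.79 for H2-DMb2. It was 1.18 for H2-Aa, 1.24 for H2-Ab1 and 1.22 for Cd74. The H2-Ob value had an SE of 1.26 and ran from -0.508 to 0.655 with 1 library left out.

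**Figure D2:**
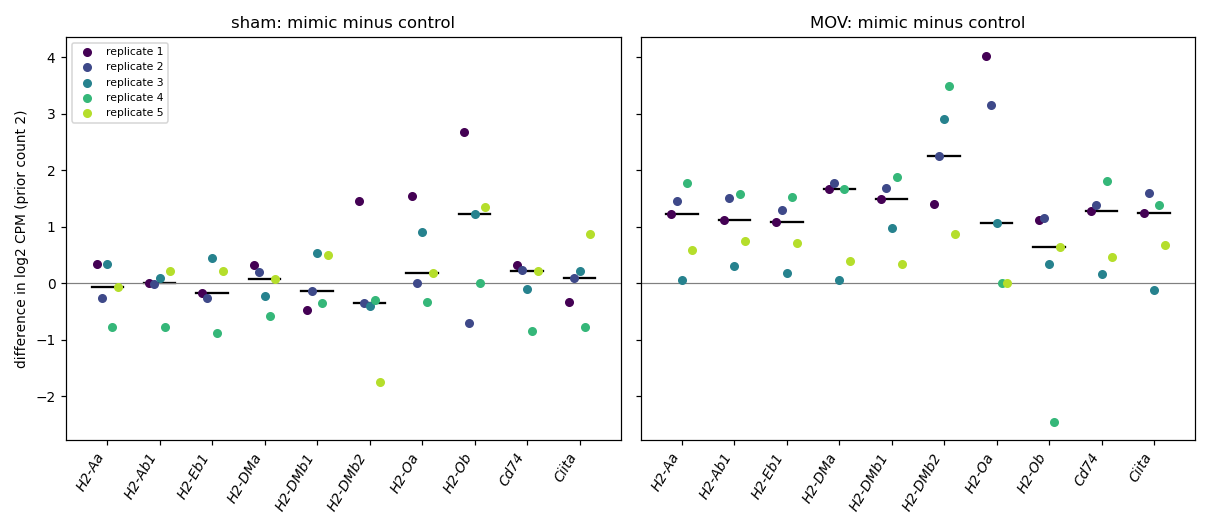
Difference in log2 CPM (prior count 2, y axis), mimic minus control in legs of equal replicate number, for the 10 class II genes in sham (left) and MOV (right). Points are the 5 replicates, coloured by number, and black lines are medians. In MOV the points of 7 genes were all above 0, with replicate 3 the lowest for H2-Aa, H2-Ab1, H2-Eb1, Cd74 and H2-DMa and replicate 5 for H2-DMb1 and H2-DMb2. In sham the points lay on both sides of 0 for each gene.

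At an adjusted p under 0.05, edgeR called 0 of the 9 members tested in mimic against control within MOV. It called 0% of the 15220 genes, and DESeq2 called 3 genes, no member among them. With a block for replicate number, DESeq2 called 8 of the 9 members, where it called 0.552% of all genes as higher. The MOV groups overlapped for each of the 10 members, while they did not overlap with mimic higher for 0.342% of all genes. Within sham edgeR called 0% of 14746 genes and for the interaction 0% of 16166 genes, with 0 members in each. Since the list was picked on these contrasts, nothing is read from the members' counts.

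Overload with the control virus asked whether MOV by itself moved the class II genes. None of the chains, nor Cd74, passed the test between MOV control and sham control. The MOV control libraries are the lower arm of the contrast that chose the list, a choice that favours low values here, so no absence of change is read from this. The Log2FC was 0.00 ± 0.32 for H2-Aa (adjusted p = 0.998), 0.19 ± 0.29 for H2-Ab1 (adjusted p = 0.773), 0.06 ± 0.27 for H2-Eb1 (adjusted p = 0.927) and 0.09 ± 0.32 for Cd74 (adjusted p = 0.910). The 95% intervals still allowed changes of -0.62 to 0.63 log2 units for H2-Aa and of -0.54 to 0.72 for Cd74. H2-DMa (0.14 ± 0.32) and H2-DMb1 (0.14 ± 0.24) did not pass the test either, nor did H2-DMb2 (-0.39 ± 0.69) and H2-Ob (0.57 ± 0.71). Ciita had the highest value at 0.74 ± 0.32 and the lowest adjusted p of the members, 0.249.

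In this comparison edgeR called 0 of the 9 members, where it called 0.00668% of 14974 genes, which is 1 gene. Of the 9, 1 had an unadjusted p under 0.05 (Ciita), as had 2726 of all genes, and DESeq2 called 0 members among its 913 genes. Without MOV control replicate 5, in which Ciita was at 3.35 CPM, the adjusted p of Ciita was 0.0489, but calls were gained over all genes as well, with 318 called, 0.725% of 15307 as higher.

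Overload with the mimic virus gave higher values, which did not pass the main test. The Log2FC of MOV mimic minus sham mimic was 1.18 ± 0.37 for H2-Aa, 1.42 ± 0.38 for H2-Ab1, 1.10 ± 0.37 for H2-Eb1 and 1.30 ± 0.37 for Cd74. It was 1.60 ± 0.46 for H2-DMa, 1.46 ± 0.46 for H2-DMb1, 2.40 ± 0.58 for H2-DMb2, 0.63 ± 0.89 for H2-Ob and 1.81 ± 0.48 for Ciita. The median over the 9 members was 1.42 and that over all genes tested 0.02, a gap that the choice of the list on MOV mimic libraries favours.

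edgeR called 0 of the 9, where it called 0% of 14918 genes, with adjusted p between 0.267 and 0.790, while 8 of the 9, as 1997 of all genes, had an unadjusted p under 0.05. DESeq2 called 5 of the 9 as higher, where it called 0.845% of all genes as higher: Cd74 (adjusted p = 0.0261), H2-Ab1 (adjusted p = 0.0149), H2-DMa (adjusted p = 0.0321), Ciita (adjusted p = 0.0156) and H2-DMb2 (adjusted p = 0.00742). The groups did not overlap, with MOV mimic higher, for 1 member, H2-DMb2, and for 1.01% of all genes. The edgeR calls turned on MOV mimic replicate 5: without it 3 members passed, Cd74 and Ciita (adjusted p = 0.0419 each) and H2-Ab1 (adjusted p = 0.0476). That fit also called 101 genes in place of 0 over all genes, 0.326% of 15332 as higher. Overload in mimic shares its MOV mimic libraries with the contrast that chose the list, so nothing is read from the members' share beside that of all genes. Whether overload differed between the viruses is the interaction given above.

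**Figure D3:**
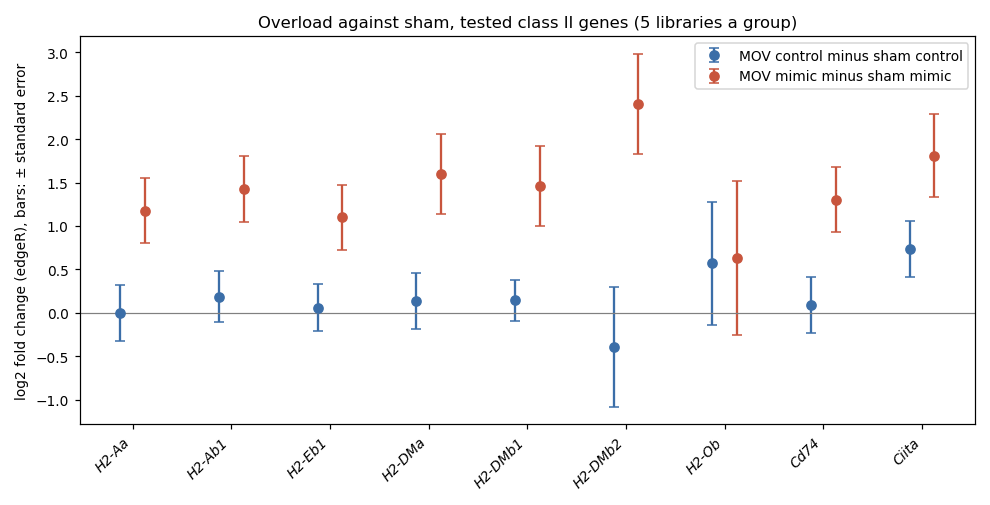
Log2FC of MOV minus sham by edgeR (y axis) for the 9 class II genes that passed the filter, with the control virus (blue) and with the mimic (red). Points are fitted values and bars are ± SE, from 5 libraries a group. With the control virus 8 of the 9 values were above 0 and the highest was 0.74 for Ciita. Of these, H2-Aa was at 0.003 and changed sign with DESeq2, and H2-Eb1, H2-DMa and Cd74 did so with a library left out. With the mimic all 9 were above 0, from 0.63 to 2.40.

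The levels of class II genes varied 6.77-fold (H2-Eb1) to 12.7-fold (H2-DMb1) between the lowest and the highest of the 20 libraries, apart from H2-DMb2, H2-Oa and H2-Ob, and much of this was within groups. The sum of H2-Aa, H2-Ab1, H2-Eb1 and Cd74 was at 300.1, 464.9, 879.1, 800.5 and 656.9 CPM in sham control and at 342.8, 461.7, 957.8, 451.2 and 727.6 CPM in sham mimic. It was at 721.7, 838.7, 820.9, 500.6 and 347.0 CPM in MOV control and at 1668, 2240, 922.4, 1645 and 521.4 CPM in MOV mimic. Replicate 1 was the lowest in both sham groups and replicate 5 in both MOV groups.

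The leukocyte gene Ptprc, which encodes CD45, moved with this sum. It was at 7.81, 16.0, 26.2, 28.9 and 22.8 CPM in sham control, 6.30, 15.1, 39.1, 25.8 and 25.1 CPM in sham mimic, 30.8, 35.1, 33.0, 12.5 and 14.4 CPM in MOV control and 63.1, 92.5, 37.3, 58.2 and 19.2 CPM in MOV mimic. The CPM ratio of H2-Ab1 to Ptprc was 5.34 ± 1.37 (SD, n = 20), with means of 5.60 and 5.36 in sham (control, mimic) and of 5.29 and 5.09 in MOV (control, mimic). Within MOV control, replicate 4 had the highest ratio of H2-Ab1 to Ptprc (8.78) while the other 4 were between 4.24 and 4.63. Sham mimic was spread more widely, from 3.15 in replicate 4 to 8.48 in replicate 1.

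The 8 genes outside the list most alike to the mean log2 CPM of H2-Aa, H2-Ab1, H2-Eb1 and Cd74 over the 20 libraries were Arhgap9 (r = 0.981), Ptprc (0.950), Cd52 (0.941), Fgd2 (0.941), Myo1g (0.939), Il10ra (0.930), Arrb2 (0.928) and Coro1a (0.923). These r are descriptions over libraries that share 4 groups, and the groups differ in level. Of the members that were not in the reference, H2-DMb1 was at r = 0.922, H2-DMa at 0.900, Ciita at 0.877, H2-DMb2 at 0.647 and H2-Ob at 0.392. Arhgap9, a GTPase activating protein of blood cells, was at 5.49, 7.69, 6.23, 3.15 and 2.84 CPM in MOV control and at 16.7, 21.7, 7.20, 18.5 and 4.41 CPM in MOV mimic, with the same 3 MOV mimic replicates high.

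**Figure D4:**
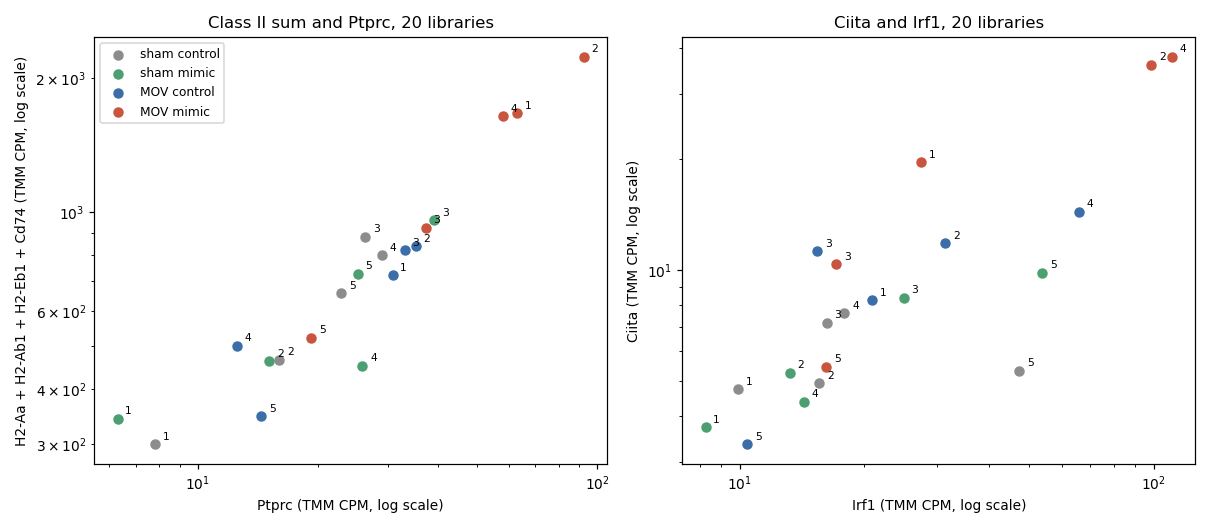
Left, the sum of H2-Aa, H2-Ab1, H2-Eb1 and Cd74 against Ptprc, and right, Ciita against Irf1, all in CPM after TMM scaling on log axes. Each point is 1 of 20 libraries, coloured by group and marked with its replicate number. MOV mimic replicates 1, 2 and 4 were at the top right on the left side. On the right side sham control and sham mimic replicate 5 had high Irf1 (47.3 and 53.8 CPM) with Ciita at 5.31 and 9.82 CPM.

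Irf1, which binds the interferon-responsive Ciita promoter, did not follow the chains in the same way. It was at 9.91, 15.6, 16.2, 17.9 and 47.3 CPM in sham control and at 8.28, 13.2, 24.9, 14.3 and 53.8 CPM in sham mimic. It was at 20.9, 31.4, 15.4, 65.9 and 10.4 CPM in MOV control and at 27.4, 98.6, 17.1, 110.6 and 16.2 CPM in MOV mimic. Replicate 5 of both sham groups and replicates 2 and 4 of both MOV groups were high. Ifng itself was at or below 0.51 CPM in 18 libraries, and at 2.79 and 10.2 CPM in MOV mimic replicates 2 and 4. Irf1, Ifng and Ptprc by library were picked after their values were seen.

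MOV control replicate 4 set Ciita, H2-DMa and H2-DMb1 apart from the chains. In it Ciita was the highest of its group (14.4 CPM), as was Irf1, while the summed chains and Cd74 were above replicate 5 alone and Ptprc was the lowest of its group. The CPM ratio of Ciita to H2-Ab1 was 0.131 there, against 0.055 to 0.080 in the other MOV control libraries. In MOV mimic replicate 4 it was 0.115, against 0.053 to 0.079 in the others of its group. H2-DMa (15.7 CPM) and H2-DMb1 (12.4 CPM) were also the highest of MOV control in replicate 4. Their ratios to H2-Ab1 were 0.143 and 0.113 there, the latter beside 0.112 in replicate 5. In MOV mimic replicate 4 these ratios were 0.151 and 0.138, each the highest of its group.

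With all libraries and the filter, no gene of the other lists passed edgeR in any comparison. With 1 library left out, Myh4, Jak2 and Nfyb passed in overload in control (lowest adjusted p = 0.0198, 0.0311 and 0.041) and Cd3g in overload in mimic (0.0419), and without the filter Myh4, Jak2 and Kdr passed in overload in control. For the promoter complex that Ciita binds to (Rfx5, Rfxap, Rfxank, Nfya, Nfyb, Nfyc, Creb1 and Atf1) the median Log2FC over 8 genes was 0.05 in overload in control, -0.03 in overload in mimic and -0.01 in mimic minus control within MOV. Its member with the highest mean, Atf1, averaged 47.3 ± 4.89 CPM in MOV control against 49.2 ± 6.64 CPM with the mimic (SD, n = 5). Single genes of this list lay on both sides of 0 in overload in control. Rfx5, a subunit of the X box factor, was at 8.84 ± 2.15 CPM in sham control and 15.2 ± 2.50 CPM in MOV control without overlap, with an edgeR Log2FC of 0.79 ± 0.19 (SE, adjusted p = 0.0696). Nfyb, a subunit of the Y box factor NF-Y, had -0.61 ± 0.17 (adjusted p = 0.0971). DESeq2 called Rfx5 as higher (adjusted p = 0.0094) and Nfyb as lower (adjusted p = 0.0294). The interferon-γ axis (7 of 8 genes tested) had medians of -0.14, 0.01 and 0.49 in the same order, and Jak1, its highest gene, had -0.21 ± 0.15, -0.43 ± 0.16 and -0.14 ± 0.18 (SE).

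The 7 endosomal processing genes (the proteases Ctss, Lgmn, Ctsb, Ctsd and Ctsl, the thiol reductase Ifi30 and the cathepsin inhibitor Cst3) had medians of -0.02, -0.12 and 0.05. Their most abundant member, the protease Ctsb, averaged 484.6 ± 103.5 CPM in MOV control against 492.9 ± 85.4 CPM with the mimic (SD, n = 5). Ctss, a protease that cuts the invariant chain, averaged 84.8 ± 46.0 CPM in MOV control against 149.5 ± 65.6 CPM with the mimic, with a Log2FC of 0.81 ± 0.41 (SE). For Ifi30 these were 17.5 ± 6.11 and 32.4 ± 16.0 CPM, with a Log2FC of 0.88 ± 0.37. The 6 genes of surface turnover and costimulation had medians of -0.01, 0.60 and 0.34. Marchf8, a ubiquitin ligase that takes class II molecules off the surface, averaged 44.6 ± 4.92 CPM in MOV control against 41.1 ± 2.57 CPM with the mimic.

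Markers of the cells that carry class II molecules are given beside these values, and their part in the class II differences was not tested. In mimic minus control within MOV, 4 of 4 pan-leukocyte markers were higher (median 0.78), as were 10 of 10 macrophage markers (median 0.49), 6 of 8 dendritic cell markers (median 0.85), 6 of 6 T cell markers (median 1.12) and the 3 of 6 B cell markers that passed the filter (median 0.78), beside -0.01 for all genes and 1.16 for the class II genes. In overload in mimic the medians were 1.16 for pan-leukocyte, 0.21 for macrophage, 1.41 for dendritic cell, 2.48 for T cell and 0.84 for B cell markers (2 tested). In overload in control they were 0.17, -0.33, 0.06, 0.96 and 0.12. In mimic minus control within sham they were -0.08, -0.23, -0.15, -0.53 and -0.10.

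The summed macrophage markers were between 151.6 and 471.0 CPM in MOV control, and between 266.5 and 560.5 CPM in MOV mimic. Dendritic cell markers summed to 21.3 to 45.6 and 25.6 to 73.4 CPM, T cell markers to 2.89 to 17.6 and 10.6 to 42.6 CPM, and B cell markers to 0.84 to 4.83 and 1.69 to 6.24 CPM in the same groups. The CPM ratio of H2-Ab1 to Csf1r, a macrophage receptor, came to 3.58 ± 1.69 in MOV control, 4.76 ± 2.27 with the mimic, and 1.91 ± 0.34 in sham control and 2.05 ± 0.45 in sham mimic (SD, n = 5). Single markers of high level were C1qb, at 69.2 ± 34.5 and 97.1 ± 28.0 CPM, Lcp1, at 37.4 ± 20.1 and 63.1 ± 23.5 CPM, and Zbtb46, at 11.6 ± 2.03 and 11.5 ± 1.22 CPM, with control and mimic virus in MOV. Zbtb46 marks classical dendritic cells and is also made by endothelium. Cd3e was at 4.13 ± 3.33 and 4.95 ± 1.67 CPM and Cd79b at 0.90 ± 0.51 and 1.55 ± 1.02 CPM.

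DESeq2 called the T cell genes Cd3g, Cd8a and Trac and the dendritic cell gene Flt3 as higher in overload in mimic, where edgeR gave 2.62 ± 0.53, 2.48 ± 0.68, 2.49 ± 0.72 and 2.22 ± 0.63 with adjusted p of 0.213 for Cd3g and 0.272 for each of the others. It called the endothelial gene Cdh5 as lower (edgeR -0.66 ± 0.15, adjusted p = 0.260). In overload in control the genes it called in these lists, beside Rfx5 and Nfyb, were all lower: Jak2, Cst3, Cd163, Kdr and Myh4, with edgeR adjusted p between 0.0554 and 0.128. These genes, with Rfx5, Nfyb, Ctss and Ifi30, fall outside the naming rule and were picked by their values. Endothelial markers (4 tested, among them Pecam1) had medians of -0.43, -0.51 and 0.08 in overload in control, overload in mimic and mimic minus control within MOV, and the 5 muscle fibre markers had -0.45, -0.46 and -0.21. Pecam1 averaged 66.2 ± 18.2 CPM in MOV control against 81.3 ± 10.2 CPM with the mimic, and Acta1 at 35724 ± 8474 and 28866 ± 10866 CPM.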

How the data were processed

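The authors deposited unnormalized counts by Ensembl gene, with control libraries in one table and mimic libraries in another. The submitters' processing notes name FastQC 0.11.9, cutadapt 4.4, Trim Galore 0.6.10, HISAT2 2.0.5, featureCounts 1.5.0-p3 and DESeq2 1.34.0, and the methods name the GRCm38 build. The annotation release and strand setting were not given in the sources used here.

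The members and gene lists were chosen with earlier results of these data known. The text names every member, the gene of highest mean of each other list, and the 8 genes most alike to the chains and Cd74 with a mean of at least 1 CPM. Symbols were found for 32640 of 54532 genes. Groups were compared by edgeR 4.0.16 with a quasi-likelihood F test (TMM, filterByExpr, 10 libraries a comparison, two-sided, Benjamini-Hochberg, threshold 0.05), checked on simulated data. p-values measure the spread between libraries. CPM per kb used exon lengths of GENCODE M1 on NCBIM37. Libraries of a group differed by a chi-square per gene of 12.6 to 152.0 over 40 pairs, so none was a copy. The alternatives were DESeq2 1.42.0, its size factors in edgeR, no filter, all 20 libraries, a replicate block, a prior count of 0.5 and each library left out. Some genes of the lists are not reported here by name.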

Additional observations from a re-analysis of the deposited data

Results flagged for a closer look

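H2-Ob, the β subunit of H2-DO, was at 2.89 CPM in sham mimic replicate 3, far from the next library of its group at 1.10 CPM. The gap divided by the range was 0.753, above Dixon's critical value of 0.71 for 5 samples. It was the only value set apart in 40 tests over 10 genes and 4 groups, where chance sets apart about 1 in 20.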

How the results depend on the processing

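The number of genes called moved with the method. In overload in control it was 1 by edgeR, 913 by DESeq2, 388 without the filter, 36 with all 20 libraries and 722 by DESeq2 with the replicate block, and 0 to 426 with each library left out in turn. In overload in mimic it was 0 by edgeR, 221 by DESeq2, 1 without the filter, 3 with all 20 libraries and 116 by DESeq2 with the block, and 0 to 101 with a library left out, the 101 without MOV mimic replicate 5. For mimic against control in MOV it was 0 by edgeR, 3 by DESeq2, 1 with all 20 libraries and 127 by DESeq2 with the block, and for the interaction 0, 1 by DESeq2 and 5 with the block. Members called in overload in mimic were 0 by edgeR, 5 by DESeq2 and 1 by DESeq2 with the block (H2-DMb2, beside 0.416% of all genes as higher), and 0 to 3 with a library left out. In overload in control they were 0 to 1 with a library left out. For overload the block joins sham and MOV libraries of different mice, whose deviations correlated at a mean of -0.081 (control) and -0.086 (mimic) for equal numbers, so its counts there match no animals. The cause of these shifts was not tested.

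The H2-Aa difference in overload in control, 0.00 by edgeR, was -0.0146 by DESeq2, -0.0145 with its size factors, -0.0272 without the filter and -0.00428 with all 20 libraries. With a library left out it was -0.194 to 0.146, that of H2-Eb1 -0.0845 to 0.205, H2-DMa -0.0486 to 0.332, H2-DMb2 -0.874 to 0.0523 and Cd74 -0.0782 to 0.303. H2-Ob in overload in mimic was -0.0507 by DESeq2 with the block.

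Deviations of mimic and control libraries of equal number from their group means correlated at 0.03 to 0.32 in MOV and at 0.01 to 0.67 in sham over 16064 genes. Not every pair was above 0.1, so the numbers were not taken as pairs. The mean was 0.166 for equal and -0.040 for unequal numbers in MOV, and 0.235 and -0.053 in sham. These values do not exclude that equal numbers share a mouse. By the highest correlation, 5 of 5 MOV mimic, 3 of 5 MOV control, 3 of 5 sham mimic and 2 of 5 sham control libraries matched their own number. With the replicate block DESeq2 called 8 members in mimic against control in MOV, all but H2-Ob and the untested H2-Oa, where it called 0.552% of 15220 genes as higher. It called 1 in the interaction, H2-Ab1, where it called 0.0247% of 16166 genes as higher. Both are contrasts that chose the list. edgeR with the block called 0 members in any comparison.

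Precision is limited by 5 libraries a group and, for H2-DMb2, H2-Oa and H2-Ob, by counts of 174 or fewer in any library.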
